A study of Mus musculus with 48 samples.

Results

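The 10 genes described here, mt-Nd1, mt-Nd2, mt-Nd4, mt-Nd5, mt-Nd6, mt-Cytb, mt-Co1, mt-Co2, mt-Co3 and mt-Atp6, encode respiratory chain proteins on the mouse mitochondrial genome. They were taken by gene symbol through the Ensembl identifiers of the count tables, and are 10 of 48709 genes in these tables. RNA from dissected, unsorted brain tissue was sequenced in 48 libraries of 46 male mice labelled C57BL/6J, and 2 mice were sequenced in 2 runs that were summed. The mice fall into 8 groups. In the dentate gyrus, 5 wild-type and 5 Fmn2-/- mice were 3 months old, and 3 wild-type and 5 Fmn2-/- mice were 8 months old. Fmn2 encodes formin 2, an actin nucleator, and the knockout is carried by every cell of the mouse. A second experiment crossed these mice with an amyloid model whose transgenes, mutant human APP among them, are driven by a neuronal Thy1 promoter. It holds 7 mice labelled FMN2-/-_APP and 9 labelled FMN2 +/+ APP, all 3 months old, so that both groups carry the amyloid transgenes. A further experiment holds 6 mice labelled APP and 6 wild-type mice, all 4 months old.

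The labels were checked against the targeted gene and the tissue before any comparison. Fmn2 lay between 93.2 and 109 CPM (read counts scaled to a common library total) in the wild-type and between 22.3 and 27.4 CPM in the Fmn2-/- mice at 3 months, and between 77.2 and 107.1 CPM against 21.7 and 28.2 CPM at 8 months. In the cross it went against the labels, with 83.3 to 101.8 CPM in the mice labelled FMN2-/-_APP and 18.9 to 23.4 CPM in those labelled FMN2 +/+ APP. Directions in the cross are therefore given for the groups as labelled. In the 4-month mice the labels name the dentate gyrus as source, whereas their titles name the prefrontal cortex. Prox1, the defining transcription factor of dentate granule cells, averaged 13.5 and 14.1 CPM there and 223 to 271 CPM in the other 6 groups. The summed level of 10 granule cell markers was 282 to 400 CPM in the 4-month mice against 979 to 1948 CPM elsewhere, and that of 10 cortical excitatory neuron markers 774 to 871 CPM against 212 to 461 CPM. Counted reads ranged from 6818809 to 43921030 per mouse, and the mice aged 8 months had 6818809 to 11675280 apart from wild-type mouse 1 with 43921030. Nothing says whether the mice of a group came from separate litters, and p-values measure only the spread between these samples.

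Mitochondria make most of the ATP of a neuron by oxidative phosphorylation. Complex I takes electrons from NADH, complex III passes them from ubiquinol to cytochrome c, complex IV hands them to oxygen, and complex V uses the proton gradient built by these to make ATP. Most subunits are encoded in the nucleus, but the hydrophobic core of each of these complexes is encoded by the small circular mitochondrial genome, which is transcribed by its own RNA polymerase (Polrmt) from both strands into long precursors. These are cut at the tRNAs that separate most genes, and most messengers receive short poly(A) tails. The mitochondrial ribosomal RNAs mt-Rnr1 and mt-Rnr2 come from the same precursors and served here as the nearest comparison.

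Of the 10 genes, 5 encode complex I subunits: mt-Nd1 (ENSMUSG00000064341, chrM:2751-3707), mt-Nd2 (ENSMUSG00000064345, chrM:3914-4951), mt-Nd4 (ENSMUSG00000064363, chrM:10167-11544), mt-Nd5 (ENSMUSG00000064367, chrM:11742-13565) and mt-Nd6 (ENSMUSG00000064368, chrM:13552-14070). mt-Cytb (ENSMUSG00000064370, chrM:14145-15288) encodes cytochrome b, the core of complex III. The catalytic core of complex IV is encoded by mt-Co1 (ENSMUSG00000064351, chrM:5328-6872), which carries the oxygen-binding site, mt-Co2 (ENSMUSG00000064354, chrM:7013-7696), which accepts electrons from cytochrome c, and mt-Co3 (ENSMUSG00000064358, chrM:8607-9390). mt-Atp6 (ENSMUSG00000064357, chrM:7927-8607) encodes the subunit of complex V that forms the proton path. Coordinates are those of GRCm38, the build also called mm10, in the GENCODE M21 annotation. All 10 genes lack introns, and mt-Nd6 is the one member on the minus strand.

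Only 7 of the 10 members could be measured. mt-Nd1, mt-Nd2, mt-Nd4, mt-Nd5, mt-Nd6, mt-Cytb and mt-Co1 had reads in every mouse, with no single value below 13476 reads. By contrast, mt-Co2, mt-Co3 and mt-Atp6 had 1 read each over all 46 mice and stood at 0 in 45 of them. A count of 0 allows up to 3 reads, which is 0.0683 CPM in the deepest and 0.44 CPM in the shallowest library, a limit on the reads counted there and on counting error only, not on the transcript. The other genes of the genome showed the same split. mt-Atp8 and mt-Nd4l had no read in any mouse and mt-Nd3 had 369 in all, while mt-Rnr1 and mt-Rnr2 were counted in every mouse.

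The genes with few or no reads are, apart from mt-Atp8, those whose sequence occurs almost whole a second time among the annotated transcripts. Each transcript was split into all its windows of 50 bases, and each window was looked up in the transcripts of all other genes. In mt-Co2, 100% of the windows were also found in another gene, with 99.9% in mt-Co3, 99.5% in mt-Atp6, 98.8% in mt-Nd4l and 98% in mt-Nd3. In the 7 counted members the share was 62.2% for mt-Nd4, 51.1% for mt-Co1, 8.19% for mt-Nd2, 7.61% for mt-Nd5 and 0% for mt-Nd1, mt-Nd6 and mt-Cytb. mt-Atp8 shared 0% of its windows, but overlaps mt-Atp6 on the genome. Only annotated transcripts were compared, so that sequence between the annotated copies is not covered.

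**Figure D1:**
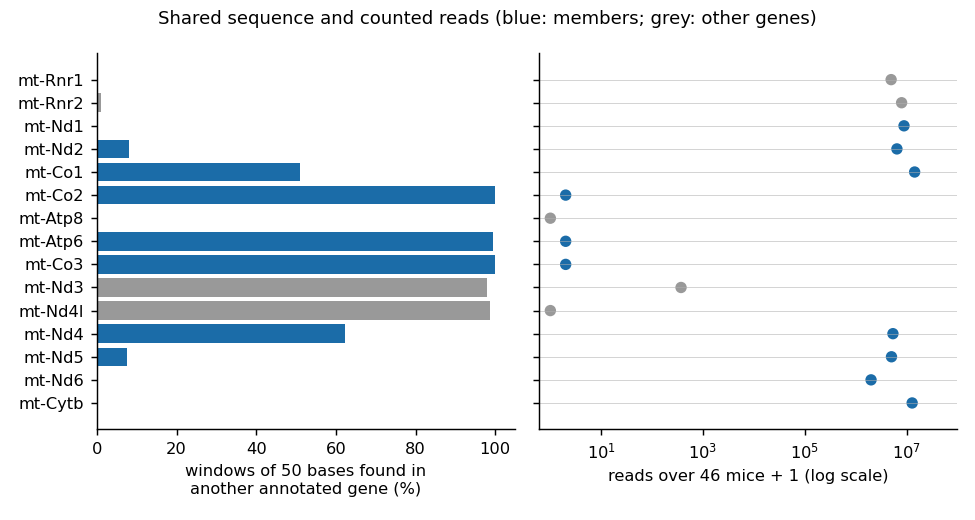
Left, share of the 50-base windows of each mitochondrial gene that also occur in another annotated gene (%), in genome order, with the 10 members in blue and the other genes in grey. Right, reads counted over 46 mice, plus 1, on a log scale. The 3 members with over 99% shared windows have 1 read each, and the 7 others have at least 2005407.

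The second copies lie together in a block on the minus strand of chromosome 1, chr1:24611535-24616197, as unprocessed pseudogenes that follow each other in the order of the mitochondrial genes. The transcript of Gm28661 matched mt-Co2 at 681 of 681 bases, Gm28437 matched mt-Co3 at 783 of 783, and Gm10925 matched mt-Atp6 at 678 of 678. Gm28439 matched part of mt-Nd4 at 876 of 876 bases, whereas Gm29216 matched part of mt-Co1 at 486 of 492. Reads that lie fully in such identical stretches cannot be given to 1 gene, and the levels of mt-Nd4 and mt-Co1 given below therefore rest on part of their length. The copies took up few of these reads: Gm10925 averaged 1.05 CPM, Gm28661 0.11 CPM and Gm28437 0.117 CPM. On chromosome 2, Gm13340 (chr2:22588103-22589647), which shares windows with mt-Co1, averaged 7.98 CPM and Gm13341 (chr2:22587291-22587962), which shares windows with mt-Co2, 4.47 CPM.

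The first 60 bases of mt-Co2 (chrM:7013-7072, plus strand) and of Gm28661 (chr1:24615506-24615565, minus strand) are printed because they show the identity of mt-Co2, which has 1 read, with its copy. The part of shared sequence in the missing reads was not tested, and mt-Atp8 had no reads with 0% shared windows. All sequences are from the GENCODE M21 transcripts on GRCm38.
mt-Co2: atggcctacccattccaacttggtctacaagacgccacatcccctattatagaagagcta
Gm28661: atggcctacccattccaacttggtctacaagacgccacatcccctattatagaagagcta

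mt-Nd3, a complex I gene outside the 10, is shown beside them because a single base separates it from its copy. mt-Nd3 (chrM:9459-9518, plus strand) and Gm28438 (chr1:24613060-24613119, minus strand) matched at 344 of 345 bases and differed by T3C, counted from 1 at the start of mt-Nd3 and printed in capitals.
mt-Nd3: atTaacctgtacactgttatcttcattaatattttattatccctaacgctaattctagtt
Gm28438: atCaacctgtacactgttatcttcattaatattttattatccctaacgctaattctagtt

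The counts of this pair split the mice by experiment. In the 18 mice of the Fmn2 experiment, mt-Nd3 had 0 to 2 reads per mouse and Gm28438 179 to 1419. In the 28 mice of the other experiments, mt-Nd3 had 6 to 33 reads and Gm28438 0 to 16. The ranges of both sets of mice do not overlap for either gene, and each experiment has its own handling and mice. Gm13340 did not follow this split, with 89 to 422 reads per mouse in the Fmn2 experiment and 71 to 675 in the others. The counts do not hold the bases of the reads, so that the part of the T3C difference in this split was not tested.

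mt-Nd5 and mt-Nd6 are transcribed towards each other and share 14 bases at their ends, which are printed in capitals with 20 bases before them. The end of mt-Nd5 is chrM:13532-13565 on the plus strand and that of mt-Nd6 is chrM:13552-13585 on the minus strand. The library kit does not mark the strand of a read, and reads of both genes cannot be told apart in these 14 bases. In the rest of mt-Nd6, reads of the opposite strand cannot be told apart from its own either. Their part in the values of mt-Nd6 was not tested.
mt-Nd5 end: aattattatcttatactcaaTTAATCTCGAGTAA
mt-Nd6 end: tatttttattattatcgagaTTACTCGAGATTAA

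The 7 counted members took up between 3.26% and 7.70% of all counted reads of a mouse, with 363048 to 2912013 reads per mouse, and 95% Wilson intervals of these shares reached at most 0.01685 percentage points to either side for counting error. Ranked by mean level among the 48709 genes, mt-Co1 had rank 1, mt-Cytb 2, mt-Nd1 3, mt-Nd2 5, mt-Nd4 6, mt-Nd5 9 and mt-Nd6 26. mt-Rnr2 and mt-Rnr1 had ranks 4 and 8.

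Of the reads on the members, mt-Co1 took up 26.5% ± 2.14 (SD, n = 46), mt-Cytb 23.3% ± 0.685, mt-Nd1 15.95% ± 1.39, mt-Nd2 11.6% ± 0.760, mt-Nd4 9.75% ± 0.690, mt-Nd5 9.25% ± 1.05 and mt-Nd6 3.64% ± 0.478. This make-up differed by group for some genes. mt-Co1 held 22.96% to 24.3% of these reads in every mouse of both 3-month groups of the Fmn2 experiment and in 8-month wild-type mice, but 25.1% to 28.3% in the 8-month Fmn2-/- mice 26.9% to 30.1% in the cross and 25.6% to 28.1% in the 4-month mice. mt-Nd6 had its lowest shares in the cross, with 2.65% to 3.61%, and 3.54% to 4.39% in all other mice, so that the ranges overlap slightly. Per kilobase of transcript, the mean level over 46 mice was highest for mt-Cytb with 9784 CPM, followed by mt-Nd1 with 8145, mt-Co1 with 8111, mt-Nd2 with 5439, mt-Nd4 with 3437, mt-Nd6 with 3397 and mt-Nd5 with 2409.

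The order of 2 neighbouring pairs changed with the group. mt-Nd1 was above mt-Co1 in 17 of 46 mice, and its mean per kilobase was higher in 3-month wild-type (13649 against 11365 CPM), 3-month Fmn2-/- (11222 against 9358) and 8-month wild-type mice (11464 against 9296). It was close to mt-Co1 in 8-month Fmn2-/- mice (8400 against 8360) and lower in the cross (6309 against 7492 and 6619 against 7978) and at 4 months (5911 against 6417 and 5787 against 6172). mt-Nd4 was above mt-Nd6 in 25 of 46 mice, with higher means in the cross (2766 against 2264 and 3029 against 2669) and lower means at 4 months (2436 against 2961 and 2403 against 2800). The other neighbours kept their order in 46 of 46 mice. When only windows found in no other gene were counted as length, mt-Co1 came first with 17142 CPM per 1000 windows, followed by mt-Cytb with 10222, mt-Nd4 with 9435 and mt-Nd1 with 8584. The rank of mt-Co1 and mt-Nd4 per length thus depends on how shared sequence is treated, while mt-Nd5 was lowest on both scales.

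**Figure D2:**
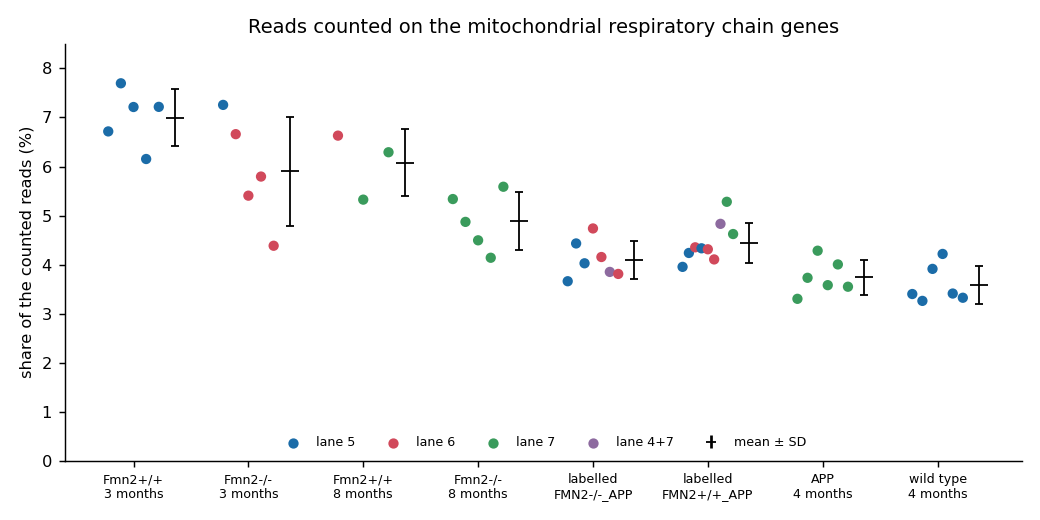
Share of all counted reads on the 7 counted members (%), 1 point per mouse in the colour of its sequencing lane, with mean and SD per group. Shares run from 6.15% to 7.70% in 3-month wild-type mice and from 4.14% to 5.59% in 8-month Fmn2-/- mice, and stay below 5.3% in the cross and in the 4-month mice.

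Levels differed between the groups, and the order of the 8 groups is a description because the experiments were handled apart. The summed level of the 7 members averaged 73515 ± 6895 CPM (SD, n = 5) in 3-month wild-type mice, 61419 ± 6823 (n = 3) in 8-month wild-type, 61055 ± 11242 (n = 5) in 3-month Fmn2-/- and 49061 ± 6403 (n = 5) in 8-month Fmn2-/- mice. It was 43119 ± 4448 (n = 9) in mice labelled FMN2 +/+ APP, 39973 ± 4331 (n = 7) in those labelled FMN2-/-_APP, 37158 ± 3785 (n = 6) in 4-month APP and 36231 ± 3669 (n = 6) in 4-month wild-type mice. Each group overlapped with its neighbours in this order. In bulk tissue, fewer cells of a type and less RNA per cell cannot be told apart.

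The members moved together from mouse to mouse. Over the 46 mice, and on deviations from the group mean of log2 CPM, each member had a Pearson correlation of 0.89 to 0.96 with the mean of the members, against 0.55 for mt-Rnr1 and 0.49 for mt-Rnr2. That mean holds the member itself but not the rRNAs, which raises the members' values by construction. Between pairs of members it ran from 0.72 for mt-Nd1 and mt-Nd5 to 0.97 for mt-Nd4 and mt-Cytb. All members of a mouse share its library and depth, and the 7 members are therefore not 7 separate observations of a comparison. Among 14734 genes off the mitochondrial genome, the most alike were Tmem184c (0.64), Snx25 (0.62), Fcf1 (0.61), Ube2d1 (0.59) and Rps24 (0.59).

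The first comparison asks whether loss of Fmn2 at a young age changes the dentate gyrus transcriptome. At 3 months, all 7 counted members lay lower in Fmn2-/- than in wild-type mice, by a median of -0.29 on the log2 scale, as did 48.9% of all genes, but none passed the test. mt-Nd1, which sits where complex I binds ubiquinone, had 12725, 14514, 13207, 11500 and 13363 CPM in the 5 wild-type mice and 13273, 11886, 9701, 11114 and 7722 CPM in the 5 Fmn2-/- mice. The knockout values spread over a wider range and 2 of them lie within that of the wild type. mt-Nd5, a proton-pumping subunit at the far end of the membrane arm, had 7052, 7690, 7556, 5202 and 6607 CPM in wild-type and 5912, 5546, 5211, 5883 and 3779 CPM in Fmn2-/- mice. One wild-type mouse, the fourth, lies below 4 of the 5 knockouts for mt-Nd5, and the groups overlap. mt-Cytb had 15614, 18154, 16966, 14787 and 17612 CPM against 17711, 16380, 12997, 14327 and 10625 CPM, and mt-Co1 16987, 19217, 18557, 14936 and 18099 CPM against 16943, 16713, 13686, 14204 and 10746 CPM. The last knockout mouse was the lowest of all 10 mice for each of these 4 genes.

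With edgeR's quasi-likelihood test and Benjamini-Hochberg adjustment over all genes, the log2 fold change at 3 months was -0.38 for mt-Nd5 (SE 0.13, adjusted p = 0.34), -0.33 for mt-Nd2 (0.12, 0.37), -0.33 for mt-Nd6 (0.13, 0.42), -0.29 for mt-Nd1 (0.12, 0.44), -0.29 for mt-Co1 (0.11, 0.42), -0.21 for mt-Cytb (0.12, 0.55) and -0.17 for mt-Nd4 (0.12, 0.66). Thus 0 of 7 members passed an adjusted p of 0.05 with a log2 fold change of at least 0.25, against 5 of 16630 genes (0.0301%), and DESeq2 also called 0 of 7 (0.793% of its genes). At an unadjusted p under 0.05, 5 of 7 were lower, against 4.17% of all genes, and all 7 ranges overlapped, where 0.583% of all genes were lower without overlap. The median over all genes was 0.00. The rRNAs, with a log2 fold change of 0.06 each (adjusted p = 0.89 for both), lay slightly above 0.

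Sequencing lane moved with this comparison. All 5 wild-type mice and knockout mouse 1 were on lane 5, and the other 4 knockouts on lane 6. Knockout mouse 1 had a summed level of 73469 CPM, within the 63135 to 81376 CPM of the wild type, while the 4 on lane 6 had 44790 to 69019 CPM. With lane as a covariate, where the comparison rests on that 1 mouse, the members' median was -0.0015 and mt-Nd1, mt-Nd4 and mt-Cytb took the opposite sign (0.03, 0.15 and 0.09). Choroid plexus markers summed to 4125 CPM in knockout mouse 4 against at most 63.7 CPM in wild-type mice, and the part of either in the result was not tested.

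The nuclear subunits were counted from a list of 77 genes. At 3 months 71 of the 77 had a log2 fold change above 0, with a median of 0.16, and 43 were higher at an unadjusted p under 0.05, against 6.35% of all genes. Ndufa3, an accessory subunit of complex I, was the 1 that passed (0.33, SE 0.05, adjusted p = 0.049), and its call was lost with lane as a covariate (adjusted p = 0.19), RLE factors (0.058), nuclear scaling (0.053) and the correction for length and GC content (0.17), which took the median of the 77 to 0.090. By complex, 35 of 37 subunits of complex I, 4 of 4 of complex II, 7 of 9 of complex III, 11 of 11 of complex IV and 14 of 16 of complex V lay above 0. Other lists held 17 genes for transcription and replication of mitochondrial DNA, 20 for processing and stability of its RNA and 11 regulators of mitochondrial biogenesis. Of these, 0 passed in edgeR, with medians of 0.02, -0.00 and 0.00. At an unadjusted p under 0.05 in either direction were 1, 2 and 4, against 10.5% of all genes.

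The same comparison at 8 months asks whether older Fmn2-/- mice differ from wild-type mice of their age. All 7 members again lay lower in Fmn2-/- mice, with a median log2 fold change of -0.38 beside 48.8% of all genes below 0, and 2 of them did not overlap between the groups. mt-Nd1 had 12168, 9562 and 11182 CPM in the 3 wild-type mice and 8908, 8105, 7488, 6558 and 9135 CPM in the 5 Fmn2-/- mice. mt-Nd4, another proton-pumping subunit of complex I, had 7370, 5982 and 7218 CPM against 5775, 5053, 4616, 4060 and 5908 CPM. For both genes every knockout lies below every wild-type mouse, though wild-type mouse 2 is close to the highest knockout. mt-Nd6, the complex I gene on the other strand, had 2673, 2042 and 2661 CPM against 1999, 1774, 1583, 1465 and 2249 CPM, and mt-Cytb 16375, 12618 and 14760 CPM against 12359, 11069, 10210, 9159 and 12822 CPM. In these 2 genes 1 knockout, the fifth, reaches above wild-type mouse 2. mt-Co1 had 15750, 13291 and 14046 CPM against 14117, 12726, 11878, 11637 and 14222 CPM, with 2 knockouts within the wild-type range.

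The log2 fold change at 8 months was -0.44 for mt-Nd1 (SE 0.11, adjusted p = 0.061), -0.43 for mt-Nd6 (0.13, 0.10), -0.42 for mt-Nd4 (0.12, 0.080), -0.38 for mt-Cytb (0.11, 0.092), -0.32 for mt-Nd2 (0.12, 0.15), -0.19 for mt-Nd5 (0.14, 0.42) and -0.15 for mt-Co1 (0.09, 0.33). None of the 7 passed in edgeR, against 166 of 14665 genes (1.13%). Of the 7, 5 were lower at an unadjusted p under 0.05, against 12.5% of all genes, and the 2 that did not overlap stand beside 6.78% of all genes that were lower without overlap. The rRNAs moved in the same direction here, with -0.36 for mt-Rnr1 (0.10, 0.075) and -0.28 for mt-Rnr2 (0.08, 0.087), and neither overlapped between the groups.

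Whether members passed at 8 months depended on the fit. DESeq2 called 4 of the 7 lower (3.87% of its genes), namely mt-Nd1 (adjusted p = 0.0071), mt-Nd4 (0.018), mt-Cytb (0.029) and mt-Nd6 (0.036). edgeR without a filter on low counts called the same 4 (2.39%), and scaling by nuclear genes alone called mt-Nd1 (adjusted p = 0.049, 1.92%). Over all settings the adjusted p of mt-Nd1 ran from 0.0035 to 0.39, and it was 0.35 with lane as a covariate. Wild-type mouse 1 was on lane 6 and all other 8-month mice on lane 7, where wild-type mice 2 and 3 still lay above all knockouts for mt-Nd1 and mt-Nd4. Without wild-type mouse 2, 4 members passed (9.53% of genes lower), and without wild-type mouse 1, 0 of 7 passed, with 4 of all genes called. Oligodendrocyte markers summed to 2600 to 3317 CPM in wild-type and 1947 to 2763 CPM in Fmn2-/- mice, with 0 of 7 called. All 7 lay below 0, with a median of -0.26, and 3 were lower at an unadjusted p under 0.05 (12.5% of all genes). Astrocyte markers summed to 5003 to 5235 CPM in wild-type and 5563 to 6226 CPM in Fmn2-/- mice, without overlap. Of these 7, 1 was called higher (0.252% of all genes) and 4 were higher at an unadjusted p under 0.05 (10.9%). The part of either in the result was not tested.

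Of the 77 nuclear subunits, 59 lay below 0 at 8 months with a median of -0.17, and 3 passed, all lower (0.880% of all genes were called lower). They were Uqcrq of complex III (-0.67, SE 0.11, adjusted p = 0.030) and the complex I subunits Ndufb7 (-0.57, 0.10, 0.038) and Ndufa13 (-0.55, 0.09, 0.030). Polrmt, the RNA polymerase that transcribes the members, was also called lower (-0.48, 0.09, 0.041). It was the 1 gene called of 17 for mitochondrial DNA transcription and replication, whose median was -0.065, beside 1.13% of all genes called. The part of Polrmt in the members' levels was not tested. With the correction for length and GC content the median of the 77 was -0.091, and the calls of Ndufa13 (-0.25, adjusted p = 0.10) and Polrmt (-0.30, 0.099) were lost. All 4 calls were lost with lane as a covariate (adjusted p 0.26 to 0.32). They were also lost when any 1 of the Fmn2-/- mice or wild-type mouse 1 was left out. Summing Fmn2-/- mice 2 and 3, the pair with the closest counts, lost them too (adjusted p 0.094 to 0.10). No gene of the other 2 lists passed in edgeR. In either direction, 5 of 20 RNA processing genes and 4 of 11 regulators had an unadjusted p under 0.05, against 23.3% of all genes.

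**Figure D3:**
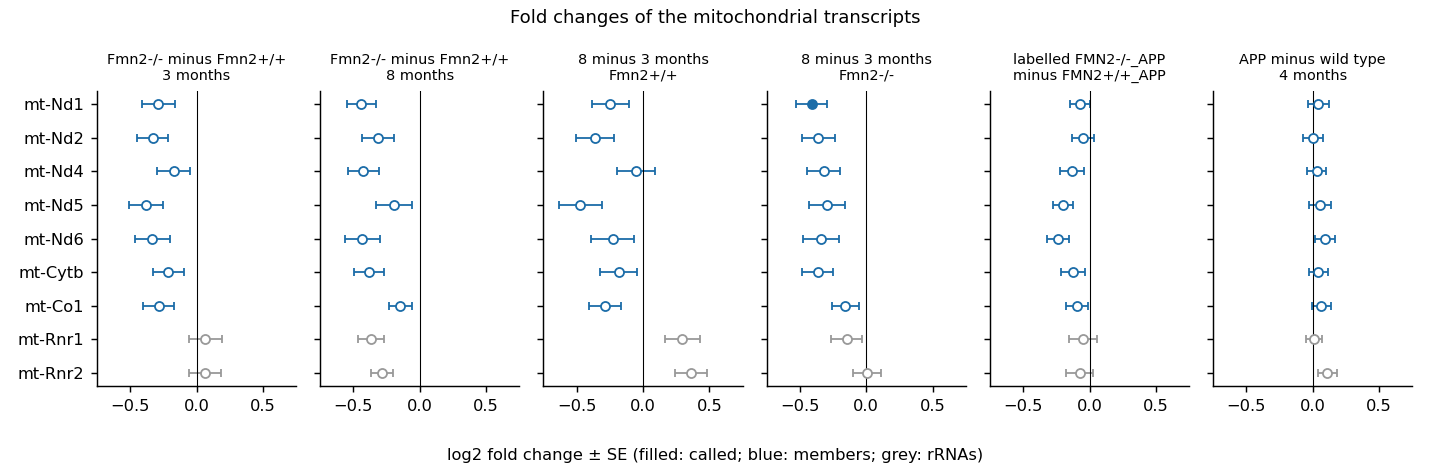
Log2 fold change with its SE for the 7 counted members (blue) and the 2 rRNAs (grey) in 6 comparisons, with a filled point where the gene passed the test. mt-Nd1 between 8 and 3 months in Fmn2-/- mice (-0.41) is the 1 filled point, and in 8-month against 3-month wild-type mice the rRNAs lie above 0 and the 7 members below.

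Whether the genotype difference itself changed with age was tested as an interaction over the 4 groups of the Fmn2 experiment. For the members it was small and of both signs: -0.27 for mt-Nd4, -0.18 for mt-Cytb, -0.17 for mt-Nd1, -0.11 for mt-Nd6, 0.00 for mt-Nd2, 0.13 for mt-Co1 and 0.17 for mt-Nd5, with SEs of 0.16 to 0.21 and adjusted p of 0.42 to 0.997. None of 7 passed in edgeR or DESeq2, and 0 of 7 had an unadjusted p under 0.05, against 3.73% of genes called in edgeR, 11.6% in DESeq2 and 22.9% at an unadjusted p under 0.05. The 95% intervals of the 7 members together span -0.67 to 0.62. The rRNAs had -0.44 and -0.36 (adjusted p = 0.14 and 0.19).

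Of the 77 nuclear subunits, 36 passed in the interaction and all 36 were lower, with a median of -0.34 and 2.99% of all genes called lower. Members of all 5 complexes were among them, 19 of 37 in complex I, 1 of 4 in complex II, 4 of 9 in complex III, 7 of 11 in complex IV and 5 of 16 in complex V. Genes with the smallest p of their complex include Ndufb7 (-0.90, SE 0.11, adjusted p = 0.0024), Uqcrq (-1.01, 0.15, 0.0048), Cox6a1 of complex IV (-0.42, 0.10, 0.026) and Atp5o of complex V (-0.45, 0.09, 0.016). Polrmt also passed (-0.62, 0.12, 0.014), as did 2 regulators, the nuclear receptor Esrra (-0.60, 0.14, 0.031) and the mitochondrial deacetylase Sirt3 (-0.26, 0.07, 0.042). They were 1 of 17 transcription and replication genes and 2 of 11 regulators. Of 20 RNA processing genes 0 passed, beside 3.73% of all genes called. With a correction for transcript length and GC content the median of the 77 was -0.15, 23 of all genes were called in place of 635, and the calls of Polrmt (-0.36, adjusted p = 0.11) and Esrra (-0.60, 0.085) were lost. That of Sirt3 was lost with RLE factors (0.052), nuclear scaling (0.055) and no filter (0.13). Leaving out wild-type mouse 1 at 8 months left 8 calls and leaving out wild-type mouse 2 gave 2791. Lane 5 held the 3-month wild-type mice, lane 6 most 3-month Fmn2-/- mice and lane 7 most 8-month mice. Lane was not fitted in the interaction, and its part in these calls was not tested.

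Age was compared within each genotype in the same fit, so these contrasts share mice with those above. In wild-type mice, all 7 members were lower at 8 than at 3 months, by a median of -0.25 beside 47.8% of all genes below 0, and the rRNAs lay higher. mt-Nd5 was lowest with -0.47 (SE 0.16, adjusted p = 0.063), with 5964, 4765 and 3976 CPM at 8 months against 5202 to 7690 CPM at 3 months. The highest 8-month mouse lies above the lowest 3-month mouse. mt-Nd2, a membrane-arm subunit of complex I, had -0.36 (0.14, 0.11), mt-Co1 -0.28 (0.12, 0.13), mt-Nd1 -0.25 (0.14, 0.27), mt-Nd6 -0.23 (0.16, 0.38), mt-Cytb -0.18 (0.14, 0.42) and mt-Nd4 -0.05 (0.14, 0.86). In edgeR 0 of 7 passed, against 9.21% of all genes called, and 3 of 7 were lower at an unadjusted p under 0.05, against 12.8%. DESeq2 called mt-Nd5 (adjusted p = 0.021), with 7.46% of its genes lower, and the correction for length and GC content called 5 of 7 (2.21%). Without wild-type mouse 4 of 3 months, wild-type mouse 1 of 8 months, or Fmn2-/- mouse 6 of 3 or 5 of 8 months, 1 of 7 passed. Without that Fmn2-/- mouse 6, 4.16% of all genes were called lower. When any single mouse was left out, 469 to 2994 of all genes were called.

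The rRNAs took the opposite direction in wild-type mice. mt-Rnr2 had 7866, 9543, 7458, 8805 and 8845 CPM at 3 months and 11131, 10544 and 11001 CPM at 8 months, a log2 fold change of 0.36 (SE 0.12, adjusted p = 0.060). mt-Rnr1 had 5167, 6329, 5004, 5968 and 5919 CPM against 7350, 6559 and 6885 CPM, a change of 0.29 (0.13, 0.15). Neither passed, but in both genes all 8-month mice lie above all 3-month mice, as do 9.26% of all genes.

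In Fmn2-/- mice, all 7 members were lower at 8 than at 3 months too, with a median of -0.34 and 51.5% of all genes below 0, and mt-Nd1 passed the test. Its values of 7722 to 13273 CPM at 3 months and 6558 to 9135 CPM at 8 months overlap, and its log2 fold change was -0.41 (SE 0.12, adjusted p = 0.036), 1 of 7 members called with 3.91% of all genes called lower. mt-Cytb had -0.37 (0.12, 0.061), mt-Nd2 -0.36 (0.12, 0.075), mt-Nd6 -0.34 (0.14, 0.14), mt-Nd4 -0.32 (0.12, 0.12), mt-Nd5 -0.30 (0.14, 0.20) and mt-Co1 -0.16 (0.10, 0.41). At an unadjusted p under 0.05, 6 of 7 were lower, against 12.3% of all genes. The rRNAs had -0.15 and 0.01 (adjusted p = 0.51 and 0.99). The call of mt-Nd1 was lost when Fmn2-/- mice 2 and 3 of 8 months, whose counts were closer to each other (chi-square per degree of freedom 1.62) than those of the other pairs (3.50 to 6.40), were summed as 1 sample (adjusted p = 0.082), and also without any 1 of Fmn2-/- mice 1, 2 and 5 of 3 months or 2, 3 and 4 of 8 months. Without Fmn2-/- mouse 6 of 3 months 4 members passed (2.75% of genes lower), and without mouse 5 of 8 months 3 passed. When any single mouse was left out, 746 to 1239 of all genes were called. DESeq2 called 3 of 7 (5.93% of its genes lower) and the correction for length and GC content 5 of 7 (1.77%). All 8-month mice but 1 were sequenced on lane 7 and no 3-month mouse was, so that age and lane cannot be told apart.

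**Figure D4:**
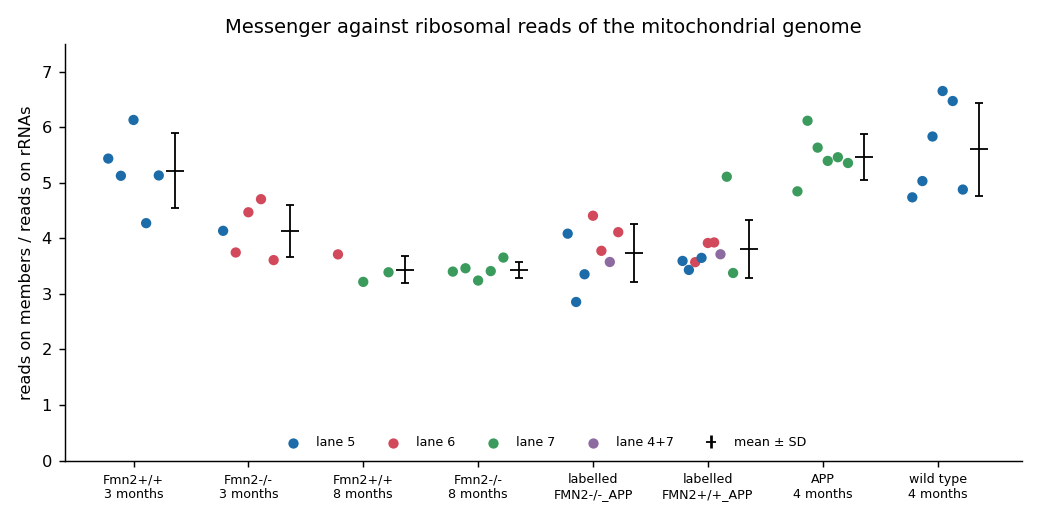
Reads on the 7 counted members divided by reads on mt-Rnr1 and mt-Rnr2, 1 point per mouse in the colour of its lane, with mean and SD per group. In wild-type mice the ratio runs from 4.27 to 6.13 at 3 months and from 3.22 to 3.71 at 8 months.

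The ratio of messenger to ribosomal reads needs no scaling between libraries. It was 5.22 ± 0.669 (SD, n = 5) in wild-type mice at 3 months and 3.44 ± 0.251 (n = 3) at 8 months, without overlap, and 4.13 ± 0.465 (n = 5) and 3.43 ± 0.149 (n = 5) in Fmn2-/- mice, where 3.61 to 4.71 at 3 months overlaps with 3.24 to 3.66 at 8 months. Fmn2-/- and wild-type mice overlapped at both ages. Messengers with tails are enriched in a poly(A) library, while the rRNAs carry only very short tails. The ratio therefore depends on the library as well as on the tissue. It was 2.86 to 4.41 in mice labelled FMN2-/-_APP, 3.38 to 5.11 in those labelled FMN2 +/+ APP, 4.85 to 6.12 in 4-month APP and 4.74 to 6.65 in 4-month wild-type mice.

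Among the nuclear subunits, 47 of 77 rose with age in wild-type mice and 0 fell (5.37% of all genes rose), with a median of 0.31 that was 0.16 with the correction for length and GC content. Those with the smallest p were Atp5e of complex V (0.80, SE 0.09, adjusted p = 2.8e-05) and Ndufc1 of complex I (0.74, 0.08, 2.8e-05). In Fmn2-/- mice 6 rose and 7 fell, with a median of -0.05 and 6.44% of all genes called. Of 11 regulators, 1 was called higher and 2 lower with age in wild-type mice, where 9.21% of all genes were called. The coactivators Ppargc1a (-0.42, 0.11, 0.024) and Ppargc1b (-1.05, 0.23, 0.0081) fell and the transcription factor Nrf1 rose (0.32, 0.10, 0.040). Of 20 RNA processing genes, 1 was called higher and 1 lower in each genotype. Of 17 genes for mitochondrial DNA transcription and replication, 0 were called in wild-type mice. In Fmn2-/- mice 1 of these 17 and 1 of the 11 regulators were called, both lower, against 6.44% of all genes. Slirp, which with its partner protects mitochondrial messengers, rose in wild-type (0.40, 0.10, 0.012) and in Fmn2-/- mice (0.28, 0.08, 0.038). Ptcd1, an RNA-binding protein of the mitochondrion, fell in wild-type mice (-0.30, 0.09, 0.034). Polrmt (-0.35, 0.08, 0.010), Esrra (-0.37, 0.09, 0.020) and Fastk, a relative of the mitochondrial RNA-processing proteins (-0.33, 0.08, 0.010), fell in Fmn2-/- mice. With the correction for length and GC content the calls of Polrmt (-0.15, adjusted p = 0.15), Fastk (-0.20, 0.060) and Slirp (0.20, 0.19) in Fmn2-/- mice and of Ppargc1a in wild-type mice (-0.31, 0.058) were lost. Without a filter on low counts those of Nrf1 (adjusted p = 0.11) and Ptcd1 (0.067) in wild-type mice and of Slirp in Fmn2-/- mice (0.10) were lost.

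**Figure D5:**
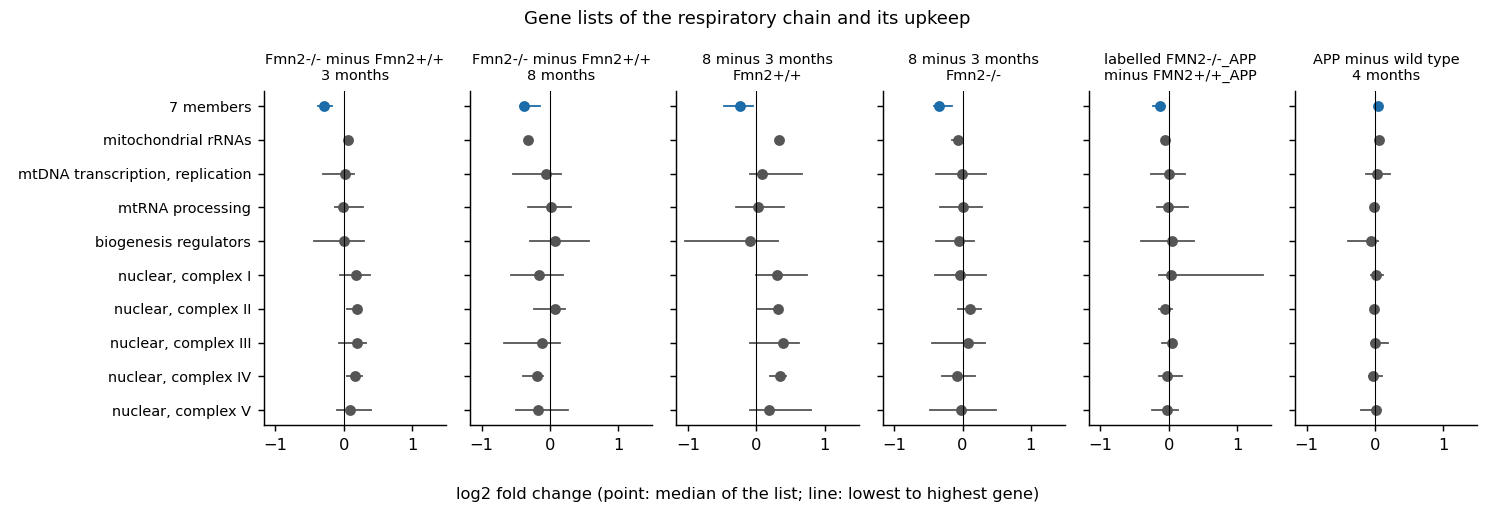
Median log2 fold change (point) with the lowest and highest gene (line) for the 7 counted members, the 2 rRNAs and the gene lists in 6 comparisons. At 3 months in Fmn2-/- against wild-type mice the members have a median of -0.29 and the complex I, III and IV lists medians of 0.18, 0.20 and 0.16.

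In the cross, the question was whether loss of Fmn2 changes the transcriptome of amyloid mice, and Fmn2 was 2.15 higher on the log2 scale in the mice labelled FMN2-/-_APP. All 7 members lay slightly lower there, as did 48.3% of all genes, with a median of -0.13. mt-Nd6 ranged from 955 to 1516 CPM with a median of 1138 in the 7 mice labelled FMN2-/-_APP and from 1236 to 1566 with a median of 1360 in the 9 labelled FMN2 +/+ APP. The lower end of the first group lies below all mice of the second, and the ranges overlap. mt-Nd5 ranged from 2971 to 4076 CPM with a median of 3381 against 3466 to 4771 with a median of 3767. mt-Nd1 ranged from 5180 to 7119 CPM with a median of 5915 against 5050 to 7013 with a median of 6414. Here the groups cover nearly the same range.

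The log2 fold change, labelled FMN2-/-_APP minus labelled FMN2 +/+ APP, was -0.24 for mt-Nd6 (SE 0.08, adjusted p = 0.15), -0.20 for mt-Nd5 (0.07, 0.18), -0.13 for mt-Nd4 (0.09, 0.51), -0.13 for mt-Cytb (0.09, 0.52), -0.09 for mt-Co1 (0.08, 0.63), -0.07 for mt-Nd1 (0.07, 0.70) and -0.05 for mt-Nd2 (0.08, 0.81). None of the 7 passed in edgeR or DESeq2, against 1.83% of genes in DESeq2 and 129 of 16656 genes (0.774%) in edgeR at a log2 fold change of at least 0.5, and 2 of 7 were lower at an unadjusted p under 0.05, against 7.77%. For mt-Nd1 the 95% interval of the difference was -0.23 to 0.09 and for mt-Nd6 -0.41 to -0.06. Both groups had 3 mice each on lanes 5 and 6, while 2 mice labelled FMN2 +/+ APP and none of the others were on lane 7 alone. With lane as a covariate mt-Nd6 had -0.23 and mt-Nd5 -0.15. Of the 77 nuclear subunits, 0 passed in edgeR and 3 were higher at an unadjusted p under 0.05 (8.87% of all genes). Of the 17, 20 and 11 genes of the other lists, 0 passed. At an unadjusted p under 0.05 in either direction were 1, 2 and 2 (16.6% of all genes). Choroid plexus markers summed to 44.8 to 9156 CPM in mice labelled FMN2 +/+ APP against at most 117 CPM in those labelled FMN2-/-_APP. Oligodendrocyte markers summed to 1214 to 1955 CPM against 1647 to 2906 CPM, with 6 of 7 higher in mice labelled FMN2-/-_APP at an unadjusted p under 0.05 (8.87% of all genes). At that p, 3 of 5 blood markers were higher, and of 7 microglia markers 1 was higher and 2 were lower (7.77% of all genes lower). None of these markers passed in edgeR, and their part was not tested.

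Between 4-month APP and wild-type mice the members were closest. mt-Nd1 ranged from 4891 to 6434 CPM with a median of 5514 in APP and from 4936 to 6692 with a median of 5198 in wild-type mice. mt-Co1 ranged from 8456 to 11360 CPM with a median of 9644 against 8446 to 10975 with a median of 9337. The ranges nearly coincide in both genes. The log2 fold changes of the 7 members lay between 0.00 for mt-Nd2 and 0.09 for mt-Nd6 (SE 0.07 and 0.07, adjusted p = 0.99 and 0.67), and the 95% intervals of all 7 together span -0.16 to 0.26. With the correction for length and GC content all 7 lay below 0, between -0.08 and -0.01. None of 7 passed in edgeR or DESeq2, and 0 of 7 had an unadjusted p under 0.05, against 392 of 16733 genes called (2.34%), 2.51% in DESeq2 and 14.3% at an unadjusted p under 0.05.

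Of the 77 nuclear subunits, 0 passed and 1 had an unadjusted p under 0.05. Of the 17, 20 and 11 genes of the other lists, 0 passed in edgeR, with 0, 0 and 2 at an unadjusted p under 0.05. Among all genes, 14.3% had an unadjusted p under 0.05 in either direction. In the same mice 6 of 7 microglia markers rose, with a median of 0.69, and the 7 oligodendrocyte markers had a median of -0.79 with 1 called lower. Among all genes, 2.19% were called higher and 0.155% lower. All APP mice were on lane 7 and all wild-type mice on lane 5, so that genotype and lane cannot be told apart here.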

How the data were processed

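RNA of unsorted tissue was made into unstranded poly(A) libraries (TruSeq), aligned with STAR to mm10 and counted per gene with HTSeq by the authors, who deposited raw counts per gene and sample. The annotation release and the strand setting of the counting are not given in the sources used here. Genes were named with GENCODE M21, in which 360 of 48709 identifiers had no entry.

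The 2 runs of a mouse were summed. Levels are CPM scaled with TMM factors over 46 mice. Tests used edgeR's quasi-likelihood test (edgeR 4.0.16, R 4.3.3) with TMM, filterByExpr and Benjamini-Hochberg adjustment over all genes tested. A gene passed at an adjusted p under 0.05 and a log2 fold change of at least 0.25, or 0.5 in the cross and the 4-month mice. Genes named from the nuclear lists are those that passed with the smallest p, up to 4 per list. Nuclear copies were to be named at a mean of at least 1 CPM, and those below it are named for their sequence match. DESeq2 1.42.0, other scalings and filters, a length and GC correction, lane, a replicate block and leaving out single mice were alternatives. The script was tested on simulated data. Likeness used log2(CPM + 0.5) of genes with a mean of at least 1 CPM. Intervals and the limit of 3 reads for a count of 0 cover counting error only. The members and lists were chosen with earlier results of these data known. Mice with the same replicate number did not deviate together.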

Additional observations from a re-analysis of the deposited data

Results flagged for a closer look

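One of 77 groups of values examined held a mouse far from the others, where chance flags about 1 in 20 groups. mt-Cytb had 13273 CPM in mouse 8 labelled FMN2 +/+ APP, against 10963 CPM in the nearest mouse and a group median of 9822 CPM. The gap was 0.499 of the group's range, with a critical value of 0.493.

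The difference between Fmn2-/- and wild-type mice differed between 8 and 3 months, by the interaction term in edgeR (quasi-likelihood test, Benjamini-Hochberg adjusted p), for 36 of 77 nuclear subunits, all lower. The same held for Polrmt (-0.62 on the log2 scale, adjusted p = 0.014), Esrra (-0.60, 0.031) and Sirt3 (-0.26, 0.042). Among all genes, 2.99% were called lower. With a correction for length and GC content the adjusted p of Polrmt was 0.11 (-0.36 on the log2 scale) and that of Esrra 0.085, and Sirt3 had 0.052 with RLE factors, 0.055 with nuclear scaling and 0.13 without a filter. With a replicate block, 0 of all genes passed this test, against 635 in the main fit. The length and GC correction left 23 calls among all genes, and leaving out wild-type mouse 1 of 8 months left 8. Lane was not fitted in this test.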

How the results depend on the processing

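The members' median stayed below 0 in every setting run for both Fmn2 comparisons, the interaction and both age comparisons. In DESeq2 the members called were 4 at 8 months, 1 for age in wild-type and 3 for age in Fmn2-/- mice, and all genes called 91 at 3 months, 733 at 8 months, 1401 in the interaction and 304 in the cross. At 3 months all genes called were 3 with RLE factors, nuclear scaling, length and GC correction or lane, 25 with library size only and 14 without a filter. With lane the members' median was -0.0015 (mt-Nd1 0.026, mt-Nd4 0.15, mt-Cytb 0.094). At 8 months nuclear scaling called 1 member and 339 genes, no filter 4 and 1124, and all genes called were 29 with length and GC correction, 3 with lane and 5 with Fmn2-/- mice 2 and 3 summed. In the interaction they were 399 without a filter, 23 with length and GC correction and 227 with the sum. Length and GC correction called 5 members and 904 genes for age in wild-type and 5 and 571 in Fmn2-/- mice, where no filter called 2 members and the sum 0.

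Replicate numbers did not pair the mice (mean correlation of same-numbered mice 0.03, -0.04, 0.07 and -0.01 at 3 months, 8 months, the cross and 4 months, with 1 of 4, 0 of 3, 2 of 7 and 1 of 6 correlating best with their number). With the replicate block, all genes called were 2 at 3 months, 4 at 8 months, 0 in the interaction and 145 for age in Fmn2-/- mice, and 2 members for age in wild-type mice. With block, length and GC correction they were 2, 6, 0 and 78, with 687 for age in wild-type mice, 5 members there (median -0.48) and 2 in Fmn2-/- mice, and a median of 0.056 in the cross. The causes were not tested.

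Signs turned mostly where values lay near 0. mt-Nd2 in the interaction was -0.011 with library size only, -0.011 without a filter, -0.097 with the block and -0.096 with block and GC correction, where mt-Nd5 was -0.040. mt-Rnr2 for age in Fmn2-/- mice was -0.020 without a filter, -0.15 with GC correction, -0.022 with the block and -0.18 with both. In the cross, GC correction gave mt-Nd1 0.019, mt-Nd2 0.029 and mt-Rnr1 0.025, and lane gave mt-Nd2 0.0021. Block with GC correction gave there mt-Nd1 0.065, mt-Nd2 0.11, mt-Nd4 0.057, mt-Cytb 0.056, mt-Co1 0.053, mt-Rnr1 0.074 and mt-Rnr2 0.021. At 4 months mt-Nd2 was -7.0e-05 in DESeq2 and -4.9e-05 with RLE factors. GC correction, without and with the block, gave there mt-Nd1 -0.051 and -0.050, mt-Nd2 -0.082 and -0.084, mt-Nd4 -0.048 and -0.051, mt-Nd5 -0.013 and -0.016, mt-Nd6 -0.022 and -0.025, mt-Cytb -0.043 and -0.044, mt-Co1 -0.0080 and -0.011, mt-Rnr1 -0.082 and -0.083.

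Leaving out single mice, all genes called ranged from 3 to 49 at 3 months, 4 to 3087 at 8 months, 8 to 2791 in the interaction, 469 to 2994 for age in wild-type mice and 73 to 171 in the cross, and members called from 0 to 4 at 8 months, 0 to 1 for age in wild-type and 0 to 4 in Fmn2-/- mice. mt-Rnr1 ranged from -0.026 to 0.12 and mt-Rnr2 from -0.031 to 0.12 at 3 months, mt-Nd2 from -0.075 to 0.10 in the interaction, mt-Nd4 from -0.11 to 0.027 for age in wild-type mice, mt-Rnr2 from -0.045 to 0.11 in Fmn2-/- mice and mt-Rnr1 from -0.15 to 0.0054 in the cross. At 4 months mt-Nd1 ranged from -0.0014 to 0.10, mt-Nd2 from -0.038 to 0.054, mt-Nd4 from -0.014 to 0.073, mt-Nd5 from -0.0095 to 0.10, mt-Cytb from -0.0025 to 0.093 and mt-Rnr1 from -0.042 to 0.035. The largest counts at 8 months, in the interaction and for age in wild-type mice came without wild-type mouse 2 of 8 months, and that at 3 months without Fmn2-/- mouse 1. The smallest came without wild-type mouse 1 of 8 months in the interaction, without it or Fmn2-/- mouse 4 at 8 months, and without wild-type mouse 3 of 8 months for age in wild-type mice.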
